A study of Homo sapiens with 4 samples.

Results

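Secretory proteins enter the endoplasmic reticulum (ER) and move on to the Golgi through machinery shared by most cargo. The signal recognition particle binds the emerging signal peptide and brings the ribosome to the Sec61 channel, where the translocon-associated protein complex assists and signal peptidase cuts the signal off. COPII-coated vesicles then carry cargo from the ER, the p24 (TMED) receptors help select it, SNAREs such as SEC22B fuse the membranes, and KDEL receptors with the COPI coat return escaped ER proteins. In epithelial cells, laminins, collagens, integrins and other surface and matrix proteins travel by this route.

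The ER to Golgi genes described here were found by symbol: 61 of the 25369 rows of the count table matched the patterns for TMED, COP, SEC11 to SEC63, SRP, SSR, SAR1 and KDELR genes. The 58 members were chosen by their symbol and selected on their read counts, as the rows with 10 or more reads in at least 2 of the 4 libraries, a level that does not use the difference between groups. All 58 reached 10 reads in all 4 libraries, and their counts ran from 22 to 45026 reads. Just inside the threshold lay TMED7-TICAM2 with 22, 23, 34 and 46 reads and SEC24B-AS1 with 30, 31, 36 and 35 reads. Just outside it lay TMED6 with 6, 5, 1 and 5 reads and the pseudogene TMED10P1 with 0, 1, 4 and 0 reads, and TMED11P had no reads. SRP14-AS1 and SEC24B-AS1 are antisense RNAs and TMED7-TICAM2 is a read-through transcript, so 55 members are single protein-coding genes.

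The cells were H226, an established line labelled as lung squamous cell carcinoma, carrying a doxycycline-inducible short hairpin RNA. The shControl group (2 cultures) expressed a non-targeting hairpin and the shp63 group (2 cultures) expressed a hairpin against p63, a transcription factor of basal epithelium. All 4 cultures, controls included, were kept in 1 µg/mL doxycycline for 6 days, and the submitters call the replicates independent. The labels name 1 hairpin construct per group and do not say whether each line is a clone, so the hairpin and its target cannot be told apart.

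The 4 libraries held 51926832 to 53924761 counted reads. TP63 had 7533 and 7364 reads in shControl and 1596 and 1530 in shp63, a 4.46-fold lower level (adjusted p = 2.28e-21), which checks the labels. Of 12 squamous and simple epithelial markers, all tested, 6 rose and 6 fell, and the squamous keratin gene KRT5 fell 5.12-fold, from 807 and 707 CPM (read counts scaled to library size, with a factor for composition) to 142 and 154 CPM. KRT14, DSG3 and PKP1 fell 3.04-fold, 4.42-fold and 6.03-fold, and SOX2 was nearly absent with 14 reads or fewer in each library. The squamous loss was not uniform, as another squamous keratin gene, KRT6A, rose 1.32-fold, without overlap between groups. The simple epithelial genes KRT8, KRT18 and EPCAM rose 2.25-fold, 2.61-fold and 1.80-fold. Of 11 leukocyte markers 5 were tested, of which CD14, CD68, CSF1R and LYZ rose and ITGAM fell. Their summed level over all 11 was 15.05 to 16.5 CPM in shControl and 81.8 to 85.5 CPM in shp63, mostly CD14 and CD68, while the pan-leukocyte marker PTPRC had 6 and 4 reads in shControl and 8 and 6 in shp63. Of 9 fibroblast markers 3 were tested and 2 of these fell, with DCN at 0 in all libraries. Their summed level was 97.3 to 102 CPM in shControl and 67.2 to 75.4 CPM in shp63. Nearly all of it was COL1A1, at 96.1 and 101 CPM in shControl and 74.8 and 66.6 CPM in shp63. Of 6 endothelial markers 3 were tested, of which CDH5 and PECAM1 rose and VWF fell, with CLDN5 at 0 in all libraries. Their summed level was 59.9 to 65.0 CPM in shControl and 190 to 191 CPM in shp63. Nearly all of it was CDH5, at 53.9 and 59.5 CPM in shControl and 188 and 187 CPM in shp63, while VWF fell 3.57-fold. Of 5 mesothelial markers the 2 tested, MSLN and UPK3B, rose, and their list summed to 334 to 361 CPM in shControl and 630 to 636 CPM in shp63. The part of these markers in the results below was not tested.

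Most ER to Golgi genes were higher after the p63 hairpin, by modest amounts. Of the 58 members 39 rose, 8 fell and 11 did not pass the test (edgeR quasi-likelihood test, Benjamini-Hochberg adjusted p under 0.05 over all 14901 tested genes). Over all tested genes 36.9% were higher and 37.1% lower by the same rule, against 67.2% and 13.8% of the members. Among the 8107 tested genes with a mean of at least 20 CPM, a level that 49 members reached, 40.5% were higher and 42.2% lower. The members were proposed with results of these libraries known, so these shares describe them and were not tested as a list.

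The median log2 fold change of the members was 0.26, against -0.01 over all tested genes, and their range was -0.69 to 1.06. Rises ran from 1.05-fold to 2.08-fold and falls from 1.06-fold to 1.62-fold. Of the 39 rises 13 were smaller than 1.2-fold, as were 6 of the 8 falls. The replicates were close, so small differences passed: the median standard error of a member's log2 fold change was 0.0363. Against a change of more than 1.5-fold (edgeR glmTreat), 10 members were higher and 0 were lower, where 12.7% and 10% of all tested genes were. Among tested genes of at least 20 CPM these shares were 10.9% and 9.12%. Summed over the members, reads made up 0.774% and 0.778% of all counted reads in shControl and 0.944% and 0.949% in shp63. In bulk RNA, a change in the share of cells that make a transcript and a change in transcript per cell cannot be told apart.

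**Figure D1:**
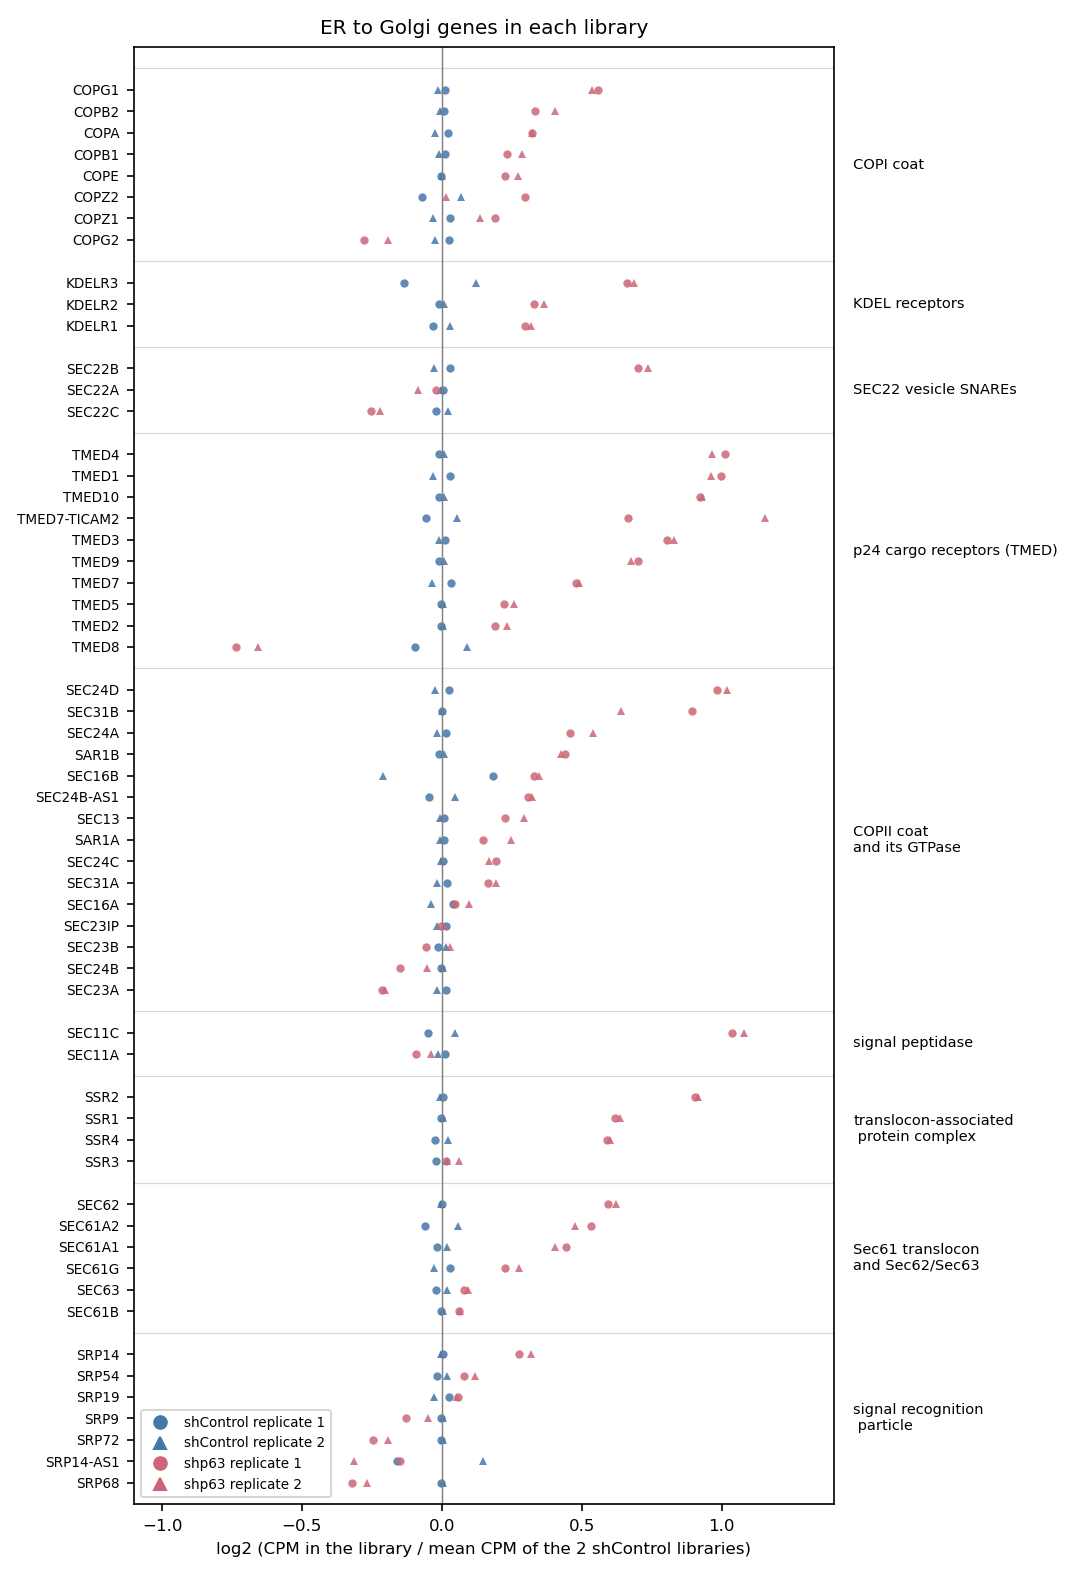
Each point is 1 library: the x axis gives log2 of its CPM over the mean CPM of the 2 shControl libraries, and the y axis lists the 58 members by role. Blue marks shControl, red marks shp63, and circles and triangles mark replicates 1 and 2. Most red points lie to the right of 0, with SEC11C (log2 fold change 1.06) farthest right and TMED8 (-0.69) farthest left among the members' means.

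**Figure D2:**
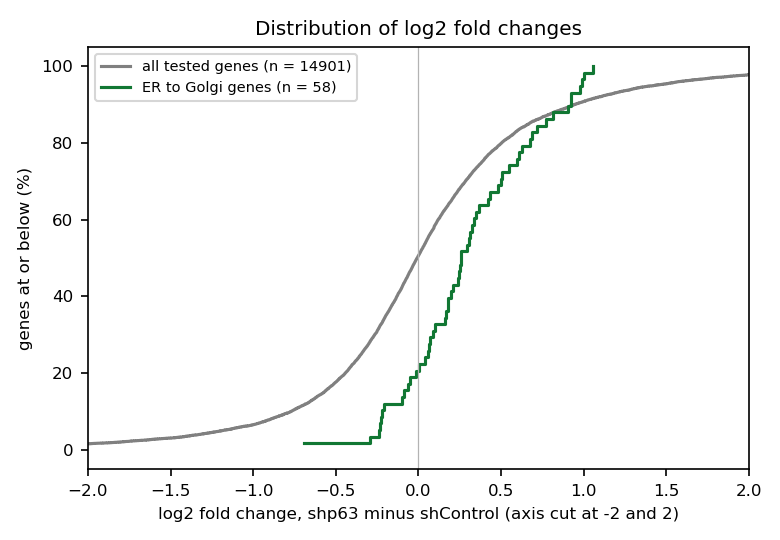
Cumulative share (%) of genes at or below each log2 fold change (shp63 minus shControl), for the 58 members in green and all 14901 tested genes in grey, with the x axis cut at -2 and 2. The members' curve lies to the right of the other at its middle (medians 0.26 and -0.01), and runs from -0.69 to 1.06.

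The groups did not overlap for 43 members that were higher in both shp63 libraries and 10 that were lower in both. Of all tested genes 42.8% were separated upward and 43.6% downward. Since 0.333 is the smallest p of an exact permutation test of 2 libraries against 2, each call draws on the variability that edgeR estimates over all genes together.

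The regulators XBP1, ATF6 and the CREB3 family, known to act on secretory genes, bind short DNA motifs. The 250 bases upstream of the members' starts were searched on both strands for motifs of this kind. The search also took in the E-box and a p53 family core pair, which were not taken as motifs of these regulators. RefSeq promoters (GRCh38.p14) were found for 52 of the 58 members, and none for SRP14-AS1, SEC24B-AS1, SEC24D, TMED4, TMED9 and KDELR2. TGACGTGG, the core of the unfolded protein response element, was found upstream of 7 of 52 members (13.5%), against 0.667% of 27305 promoters and 0.741% of 10665 promoters of tested genes. GCCACGTC, which can overlap it, was found in 9 members (17.3%, against 0.846% of all promoters and 1.28% of those of tested genes). The shorter CCACG was found in 40 members (76.9%, against 33.3% and 43.7%) and TGACGT in 10 (19.2%, against 7.42% and 9.85%); both lie inside longer motifs searched here. CACGTG, the E-box, was found in 7 members (13.5%, against 6.49% and 8.63%). No member had the ER stress response element (CCAAT and CCACG with 9 bases between, in 0.0806% of all promoters) or its second form (ATTGG and CCACG with 1 base between, 0.0513%) in this window. Nor did any have TGACGTGT (0.341%), TGACGTCA (1.77%) or a p53 family core pair (CATG and CATG with 6 bases between, 0.297%). A match is a run of letters and does not show that a factor binds there.

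The 7 stretches with TGACGTGG are shown because they hold letters that few promoters have. Each is written on the strand of its gene, with the motif in capitals, so that a match on the opposite strand reads CCACGTCA. The stretches lie at chr5:112861149-112861208 (SRP19, plus), chr3:169966764-169966806 (SEC62, plus), chr1:177984285-177984341 (SEC16B, minus), chr5:134648580-134648639 (SEC24A, plus), chr22:38468024-38468083 (KDELR3, plus), chr11:14499826-14499885 (COPB1, minus) and chr3:139389810-139389869 (COPB2, minus).
SRP19: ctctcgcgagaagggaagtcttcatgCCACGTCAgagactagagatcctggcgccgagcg
SEC62: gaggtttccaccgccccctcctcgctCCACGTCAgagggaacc
SEC16B: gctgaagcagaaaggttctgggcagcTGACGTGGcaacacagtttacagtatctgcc
SEC24A: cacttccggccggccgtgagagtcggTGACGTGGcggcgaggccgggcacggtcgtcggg
KDELR3: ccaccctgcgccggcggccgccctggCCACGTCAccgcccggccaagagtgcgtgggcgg
COPB1: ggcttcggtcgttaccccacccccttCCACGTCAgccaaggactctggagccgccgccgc
COPB2: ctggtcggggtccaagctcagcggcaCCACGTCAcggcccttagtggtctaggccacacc
Of these 7 genes 5 rose and SRP19 and SEC16B did not pass the test, where 67.2% of all members and 36.9% of all tested genes rose. Whether genes with the motif rose more often than other members was not tested. None was among the 7 members with a RefSeq promoter that were called beyond 1.5-fold. Of those 7, SEC11C (chr18:59139816-59139873, plus) and TMED10 (chr14:75176613-75176668, minus) held CACGTG. Of all 7 members with CACGTG 5 rose, and SSR3 and SEC23IP did not pass the test. SSR1, SEC24A and SEC16A rose 1.54-fold, 1.41-fold and 1.05-fold. Whether members with CACGTG rose more often or further was not tested. Only the SEC11C and TMED10 stretches are shown for it, with CACGTG in capitals, because these were among the larger rises.
SEC11C: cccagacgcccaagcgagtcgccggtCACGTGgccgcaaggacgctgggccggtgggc
TMED10: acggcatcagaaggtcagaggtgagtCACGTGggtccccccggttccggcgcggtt

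The signal recognition particle genes divided, in shares near those of all tested genes. Those were 36.9% higher and 37.1% lower, the background for each group below. Of 7 members 2 rose (28.6%), 3 fell (42.9%) and 2 did not pass the test (median log2 fold change -0.09). The median was -0.05 without shp63 replicate 1, -0.13 without shp63 replicate 2 and -0.18 with library totals. SRP14, which with SRP9 forms the Alu-binding end of the particle, had 189 and 188 CPM in shControl and 228 and 235 CPM in shp63, without overlap (1.23-fold higher, adjusted p = 7.29e-09). Its partner SRP9 had 246 and 247 CPM in shControl and 225.8 and 238 CPM in shp63, a 1.06-fold fall (adjusted p = 0.0147) that was not called without shp63 replicate 1 (adjusted p = 0.189). SRP14 has 5 annotated pseudogenes and SRP9 has 1, so reads shared with these copies are uncertain.
The other heterodimer of the particle, SRP68 and SRP72, fell in both subunits. SRP68 had 96.4 and 97.0 CPM in shControl and 77.4 and 80.3 CPM in shp63 (1.23-fold lower, adjusted p = 5.20e-07). SRP72 went from 229 and 230 CPM to 193 and 201 CPM (1.16-fold lower, adjusted p = 9.27e-07). Neither gene's groups overlapped. SRP54, the GTPase that recognises the signal peptide, had 83.2 and 85.3 CPM in shControl and 89.0 and 91.5 CPM in shp63 (1.07-fold higher, adjusted p = 0.0244). That call was lost with DESeq2 (adjusted p = 0.0658), with library totals (log2 fold change 0.01), and without shControl replicate 1, shControl replicate 2 or shp63 replicate 2 (adjusted p = 0.122, 0.0569 and 0.0575). SRP19, the subunit that prepares the RNA for SRP54, was at 34.9 and 36.3 CPM (adjusted p = 0.213), and the antisense SRP14-AS1 at 1.51 and 1.29 CPM (adjusted p = 0.268).

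The channel genes moved upward. Of 6 members 5 rose, 0 fell and SEC61B did not pass the test (median log2 fold change 0.34). SEC62, a channel partner used for short and post-translationally inserted proteins, had 167 and 167 CPM in shControl and 252 and 257 CPM in shp63. This was the largest change of the group, 1.52-fold (log2 fold change 0.61, SE 0.0291, adjusted p = 2.37e-14). It was not called beyond 1.5-fold (adjusted p = 0.312, glmTreat).
SEC61A1, the pore subunit, had 467 and 480 CPM in shControl and 644 and 626 CPM in shp63 (1.34-fold, adjusted p = 8.41e-11). Its paralog SEC61A2 had 8.10 and 8.78 CPM in shControl and 12.2 and 11.7 CPM in shp63 (1.42-fold, adjusted p = 2.14e-06). Per transcript length SEC61A2 held 2.42% and 2.55% of the 2 genes' level in shControl and 2.64% and 2.61% in shp63, so SEC61A1 remained by far the more abundant. Of the small channel subunits, SEC61G rose 1.19-fold, while SEC61B was at 57.7 and 60.3 CPM (log2 fold change 0.06, SE 0.0419, adjusted p = 0.177). SEC63, the partner that recruits the ER chaperone BiP, rose 1.06-fold (adjusted p = 0.0112). That call was lost without shControl replicate 1 (adjusted p = 0.189) and with library totals, where the log2 fold change was -0.000353.

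Within the translocon-associated protein complex, 3 of 4 subunits rose and SSR3 did not pass the test (median log2 fold change 0.61). SSR2 (TRAP beta; chromosome 1, 155978839 to 155990742, minus strand, GRCh37) had 107 and 106 CPM in shControl and 200 and 201 CPM in shp63. The groups lay far apart, a 1.88-fold rise (log2 fold change 0.91, SE 0.0299) called beyond 1.5-fold (adjusted p = 3.82e-10, glmTreat). SSR1 rose 1.54-fold, from 327 and 329 CPM to 503 and 510 CPM. SSR4 rose 1.51-fold, from 99.3 and 103 CPM to 152 and 153 CPM. Neither SSR1 nor SSR4 was called beyond 1.5-fold (adjusted p = 0.112 and 0.545, glmTreat). SSR3, the gamma subunit, had 140 and 144 CPM in shControl and 143 and 148 CPM in shp63, which overlap (log2 fold change 0.04, SE 0.0317, adjusted p = 0.283).

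Signal peptidase, whose catalytic subunit is made from either of a pair of paralogs, changed in 1 of them. SEC11C (chromosome 18, 56807098 to 56826064, plus strand) had the largest rise of all members. It had 40.7 and 43.6 CPM in shControl and 86.5 and 89.1 CPM in shp63, a 2.08-fold rise (log2 fold change 1.06, SE 0.0443; adjusted p beyond 1.5-fold 4.60e-10, glmTreat). SEC11A had 190 and 187 CPM in shControl and 177 and 184 CPM in shp63, lower in both libraries but not past the test (adjusted p = 0.0550); it was called lower with a filter of 1 CPM (adjusted p = 0.0450), with library totals (adjusted p = 6.13e-05) and without shp63 replicate 2 (adjusted p = 0.0160). Per transcript length, SEC11C made up 22.6% and 24.1% of the 2 genes' level in shControl and 40.0% and 39.8% in shp63.

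The COPII coat rose in part. Of 15 members 9 rose (60%), 2 fell (13.3%) and 4 did not pass the test (median log2 fold change 0.20). With library totals this median was 0.11. Of the cargo-binding SEC24 adaptors 3 rose and 1 fell. SEC24D (chromosome 4, 119643978 to 119759838, minus strand) had 33.6 and 32.5 CPM in shControl and 65.4 and 67.0 CPM in shp63, a 2.00-fold rise with well separated groups (log2 fold change 1.00, SE 0.0417; adjusted p beyond 1.5-fold 1.58e-09, glmTreat). SEC24A went from 54.3 and 53.1 CPM to 73.8 and 78.0 CPM (1.41-fold higher, adjusted p = 6.31e-10), and SEC24C rose 1.13-fold. SEC24B fell 1.07-fold, from 74.5 and 74.9 CPM to 67.3 and 72.0 CPM (adjusted p = 0.0356), a call lost with DESeq2 (adjusted p = 0.0985) and without shControl replicate 2 (adjusted p = 0.0584) or shp63 replicate 1 (adjusted p = 0.311). Per transcript length SEC24C was the most abundant adaptor in every library, with 48.7% and 48.8% of the 4 genes' level in shControl and 45.3% and 43.8% in shp63. SEC24D went from 13.6% and 13.3% of that level to 21.7% and 21.8%, and SEC24B went from 23.9% and 24.2% to 17.6% and 18.5%.

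No gene of SEC23, the other inner coat subunit, rose. SEC23A fell 1.16-fold, from 81.3 and 79.6 CPM to 69.4 and 69.9 CPM (adjusted p = 6.43e-05). SEC23B was at 57.9 and 57.3 CPM (log2 fold change -0.01, SE 0.0445) and SEC23IP, a binding partner of SEC23, at 66.6 CPM in both groups (adjusted p = 0.780 and 0.972). With library totals SEC23B was called lower (adjusted p = 0.0386). In the outer coat, SEC31A, at 207 and 202 CPM in shControl and 229 and 234 CPM in shp63, rose 1.13-fold. SEC13, its partner in the cage, went from 96.3 and 95.2 CPM to 112 and 117 CPM, a 1.196-fold rise. The minor paralog SEC31B (chromosome 10, 102246403 to 102279621, minus strand) had 11.1 CPM in both shControl libraries and 20.7 and 17.4 CPM in shp63 (1.71-fold). Its shp63 libraries differed more than those of most members. Its call beyond 1.5-fold (adjusted p = 0.0118, glmTreat) was lost with DESeq2, limma-voom, library totals and without shp63 replicate 1.

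The GTPases that start coat assembly both rose. SAR1B, the form linked to lipoprotein export, had 61.4 and 62.2 CPM in shControl and 83.8 and 83.0 CPM in shp63 (1.35-fold, adjusted p = 1.88e-09), and SAR1A rose 1.15-fold from 129 and 128 CPM to 142 and 152 CPM. SAR1B (minus strand, ending at 133984961) and SEC24A (plus strand, starting at 133984475) overlap at their starts on chromosome 5, and the strand setting of the counting is not given, so reads in the overlap are uncertain. SEC16A, the scaffold of ER exit sites, was 1.05-fold higher at the edge of the threshold (adjusted p = 0.0478). That call was lost with DESeq2, limma-voom, no low-count filter and library totals, where the log2 fold change was -0.02. It was also lost without shControl replicate 2 and without shp63 replicate 2. SEC16B, at 1.27 and 1.61 CPM (adjusted p = 0.101), passed only without shControl replicate 1 (adjusted p = 0.0311), and SEC24B-AS1, at 0.559 and 0.695 CPM (adjusted p = 0.265), did not pass.

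The p24 family changed most. These small membrane proteins bind cargo and coats and work as oligomers drawn from the alpha, beta, gamma and delta subfamilies. Of 10 TMED members, the read-through TMED7-TICAM2 included, 9 rose (90%) and TMED8 fell (median log2 fold change 0.75). Called higher beyond 1.5-fold were 5, where 12.7% of all tested genes were. The median was 0.69 with a filter of 1 CPM, 0.68 without shp63 replicate 2 and 0.67 with library totals. TMED10, the only delta member, had 454 and 460 CPM in shControl and 866 and 870 CPM in shp63 (chromosome 14, 75598172 to 75643315, minus strand). This was a 1.90-fold rise (log2 fold change 0.93, SE 0.0323; adjusted p beyond 1.5-fold 5.73e-10, glmTreat). Its partner TMED2, the only beta member, had 534 and 537 CPM in shControl and 610 and 629 CPM in shp63, a rise of 1.16-fold (adjusted p = 4.12e-06).
Both alpha members rose. TMED4 (chromosome 7, 44617493 to 44621886, minus strand) went from 92.6 and 93.8 CPM to 188 and 182 CPM (1.99-fold, adjusted p beyond 1.5-fold 2.78e-11, glmTreat). TMED9 (chromosome 5, 177019204 to 177024243, plus strand) went from 194 and 197 CPM to 318 and 313 CPM (1.61-fold). Its call beyond 1.5-fold (adjusted p = 0.00104, glmTreat) was lost with library totals.
The gamma members divided by size. TMED1 (chromosome 19, 10942743 to 10946994, minus strand) had 23.1 and 22.1 CPM in shControl and 45.1 and 43.998 CPM in shp63, a 1.97-fold rise (adjusted p beyond 1.5-fold 6.94e-09, glmTreat). TMED3 (chromosome 15, 79603454 to 79719774, plus strand) had 270 and 266 CPM in shControl and 468 and 476 CPM in shp63, a 1.76-fold rise (adjusted p beyond 1.5-fold 9.93e-08, glmTreat). TMED7 and TMED5 rose less, by 1.399-fold (from 135 to 189 CPM) and 1.18-fold (from 87.5 to 103 CPM). The read-through TMED7-TICAM2, which shares exons with TMED7, rested on 22 and 23 reads in shControl and 34 and 46 in shp63 (adjusted p = 0.00490). That call was lost with DESeq2 (adjusted p = 0.0961) and without shp63 replicate 2 (adjusted p = 0.106). TMED8, which lies outside the 4 subfamilies, had 3.08 and 3.52 CPM in shControl and 1.98 and 2.09 CPM in shp63, a 1.62-fold fall (adjusted p = 9.42e-05) not called beyond 1.5-fold (adjusted p = 0.295, glmTreat).

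**Figure D3:**
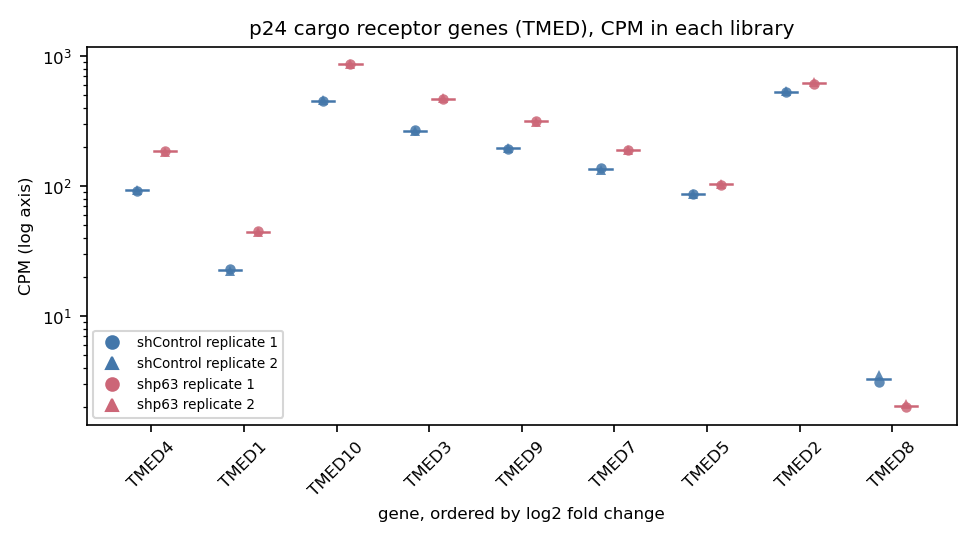
CPM of 9 TMED genes on a log axis, ordered by log2 fold change, with shControl in blue and shp63 in red. Points are single libraries (circles replicate 1, triangles replicate 2) and short bars are group means. The shp63 points lie above the shControl points for 8 genes, from TMED4 (93.2 to 185 CPM) to TMED2 (535 to 620 CPM), and below them for TMED8 (3.30 to 2.04 CPM).

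Of the 3 SEC22 genes, SEC22B rose, SEC22C fell and SEC22A did not pass the test. These shares, 33.3% higher and 33.3% lower, were near the 36.9% and 37.1% of all tested genes. SEC22B, the SNARE of ER to Golgi vesicles (chromosome 1, 145096408 to 145118353, plus strand), had 61.2 and 58.9 CPM in shControl and 97.5 and 100.04 CPM in shp63, a 1.64-fold rise (adjusted p = 4.35e-13). Its call beyond 1.5-fold (adjusted p = 0.00197, glmTreat) was lost with DESeq2 and with library totals. The annotated copies, SEC22B2P, SEC22B3P and SEC22B4P, overlap it in the GRCh37 annotation used, so its reads are uncertain. SEC22C fell 1.18-fold from 75.9 and 78.2 CPM to 64.6 and 66.2 CPM (adjusted p = 1.88e-05), and SEC22A was at 21.2 and 20.4 CPM (adjusted p = 0.376). SEC22A was called lower with library totals (adjusted p = 0.0234).

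All 3 KDEL receptors rose (median log2 fold change 0.35). KDELR3 had 6.26 and 7.48 CPM in shControl and 10.9 and 11.05 CPM in shp63, a 1.60-fold rise (adjusted p = 2.40e-07). KDELR3 overlaps DDX17 on the opposite strand, and the strand setting of the counting is not given, so its reads are uncertain. Its test beyond 1.5-fold gave adjusted p = 0.196 (glmTreat). KDELR2 rose 1.27-fold, from 257 and 260 CPM to 325 and 333 CPM, and KDELR1 rose 1.24-fold, from 175 and 183 CPM to 220 and 223 CPM. Per transcript length KDELR1 and KDELR2 held nearly equal parts of their joint level, with KDELR1 at 55.1% and 55.8% in shControl and 54.9% and 54.6% in shp63. KDELR3 was the least abundant receptor per length, at 4.05 CPM per kilobase in shControl and 6.47 in shp63.

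The COPI coat, which carries retrieved proteins back to the ER, rose across its main subunits. Of 8 members 6 rose (75%), COPG2 fell (12.5%) and COPZ2 did not pass the test (median log2 fold change 0.25, and 0.17 with library totals). COPG1, the main gamma subunit, had 175 and 172 CPM in shControl and 256 and 252 CPM in shp63 (1.46-fold, adjusted p = 1.61e-13). COPB2 went from 253 and 251 CPM to 317 and 333 CPM, a 1.29-fold rise (adjusted p = 5.23e-10). COPA rose 1.25-fold, COPB1 1.197-fold, COPE 1.19-fold and COPZ1 1.12-fold. These 6 subunits of the core coat therefore moved within a range of 1.12-fold to 1.46-fold. The paralog COPG2 went the other way, from 24.5 and 23.7 CPM to 19.9 and 21.1 CPM (1.18-fold lower, adjusted p = 0.000438). COPG2 overlaps MEST on the opposite strand, so reads in the overlap are uncertain. Per transcript length COPG2 fell from 20.01% and 19.7% of the gamma subunit level to 12.2% and 13.02%. The lengths used were 1722 bases for COPG2 and 3078 for COPG1. If the COPG2 length is too short, these shares are too high, so they are uncertain. COPZ2 had 3.17 and 3.50 CPM in shControl and 4.09 and 3.37 CPM in shp63, which overlap (adjusted p = 0.234).

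Within several families the members differed in response. The log2 ratio of SEC11C to SEC11A reads was -2.23 and -2.10 in shControl and -1.03 and -1.04 in shp63, a 2.18-fold shift. The ratio of SEC24D to SEC24B shifted 2.15-fold, that of SEC24D to SEC24C 1.76-fold and that of SEC24A to SEC24B 1.52-fold. The ratio of COPG2 to COPG1 shifted 1.72-fold the other way, from -2.84 and -2.86 to -3.68 and -3.58. In each of these pairs the groups did not overlap, and the shift exceeded the gap between replicates, of at most 0.12 on the log2 scale. SEC31B to SEC31A shifted 1.503-fold with a wider gap of 0.29. The shift was 1.03-fold for KDELR1 to KDELR2 and 1.06-fold for SEC61A2 to SEC61A1, each near the gap between replicates, and the ratio of COPZ2 to COPZ1 overlapped between groups. For 2 against 2 libraries the smallest p of an exact permutation test is 0.333, so no p-value is given for the shifts.

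**Figure D4:**
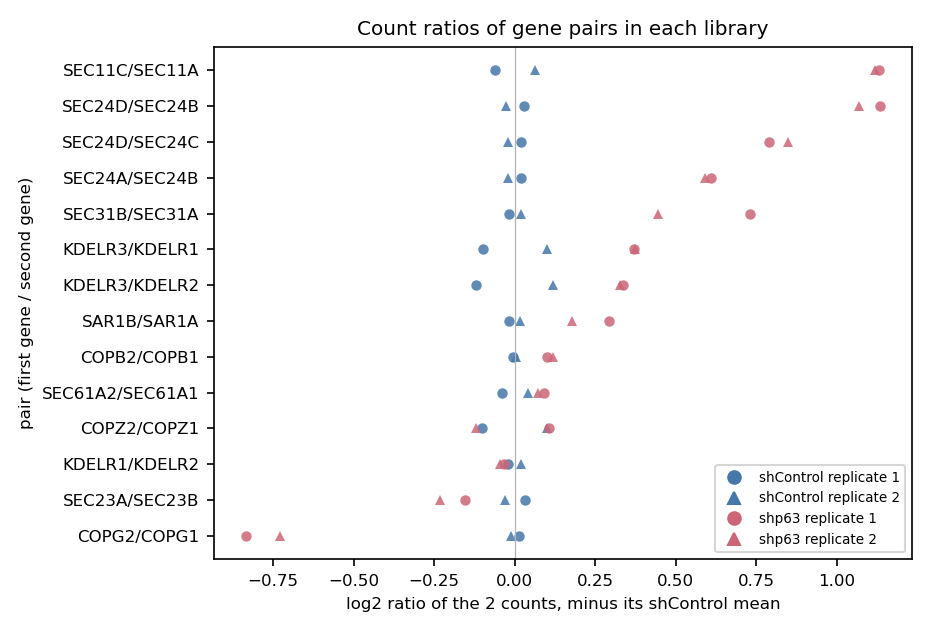
Log2 ratio of the read counts of 2 genes in each library, minus its mean in shControl, for 14 pairs. Blue is shControl, red is shp63, circles are replicate 1 and triangles replicate 2. SEC11C/SEC11A (shift 1.13) and SEC24D/SEC24B (1.10) lie farthest right, COPG2/COPG1 (-0.78) farthest left, and COPZ2/COPZ1 (-0.01) overlaps. COPB1 and COPB2 are distinct coat subunits rather than paralogs.

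Other genes of the pathway, taken from lists outside the symbol rule, also leaned upward. These lists were chosen with earlier results of these libraries known, so their counts describe them and are not separate support. By the same rule 36.9% of all tested genes were higher and 37.1% lower, and 40.5% and 42.2% of those of at least 20 CPM. Of 17 translocation and N-glycosylation genes 16 rose, 0 fell and TRAM2 did not pass the test (median log2 fold change 0.48). KRTCAP2, an oligosaccharyltransferase subunit, rose 1.91-fold from 64.2 and 64.3 CPM to 124 and 122 CPM. RPN1, another subunit of that enzyme, rose 1.65-fold from 246 and 253 CPM to 413 and 408 CPM. The adjusted p was 7.89e-16 for KRTCAP2 and 1.96e-15 for RPN1.
Of 15 cargo receptor and ERGIC genes 12 rose, 0 fell and 3 did not pass (median 0.44), with ERGIC1 at 280 and 285 CPM in shControl and 531 and 526 CPM in shp63. LMAN2, a lectin that carries glycoproteins, rose 1.78-fold from 171 CPM in both shControl libraries to 310 and 299 CPM in shp63. The lists that follow held genes that fell as well as genes that rose. Of 13 coat regulators 10 rose and ARFGAP2 fell (median 0.21). This list includes ARCN1, a gene of the COPI coat itself that the symbol rule does not match, which rose 1.23-fold. ARFGAP3, a GTPase activator of the COPI cycle, rose 1.93-fold from 54.9 and 53.2 CPM to 102 and 107 CPM, ARF4 rose 1.33-fold, and ARFGAP2 fell 1.16-fold. Of 23 tethers and SNAREs 16 rose, 3 fell and 4 did not pass (median 0.25). GOLGA2, the Golgi matrix protein GM130, rose 1.39-fold and the SNARE gene BET1L rose 1.45-fold. The TRAPP subunit gene TRAPPC2L fell 1.37-fold and the SNARE gene BNIP1 fell 1.26-fold.

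Of 10 regulators of secretory capacity 8 rose, ATF6B fell and MBTPS2 did not pass the test (median 0.40). XBP1, the transcription factor activated by IRE1 splicing in the unfolded protein response, had 185 and 188 CPM in shControl and 608 and 615 CPM in shp63, a 3.28-fold rise (log2 fold change 1.71, adjusted p = 1.12e-21). Gene-level reads do not separate its spliced and unspliced forms. CREB3L1, a factor of the CREB3 family, rose from 6 and 10 reads to 36 and 28 reads (adjusted p = 2.86e-05) and stayed under 1 CPM in all libraries. ATF6, the membrane-bound factor cleaved in the Golgi, rose 1.43-fold from 99.3 and 98.9 CPM to 140 and 143 CPM. ATF6B had 171 and 164 CPM in shControl and 152 and 151 CPM in shp63 (1.10-fold lower, adjusted p = 0.000253).

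**Figure D5:**
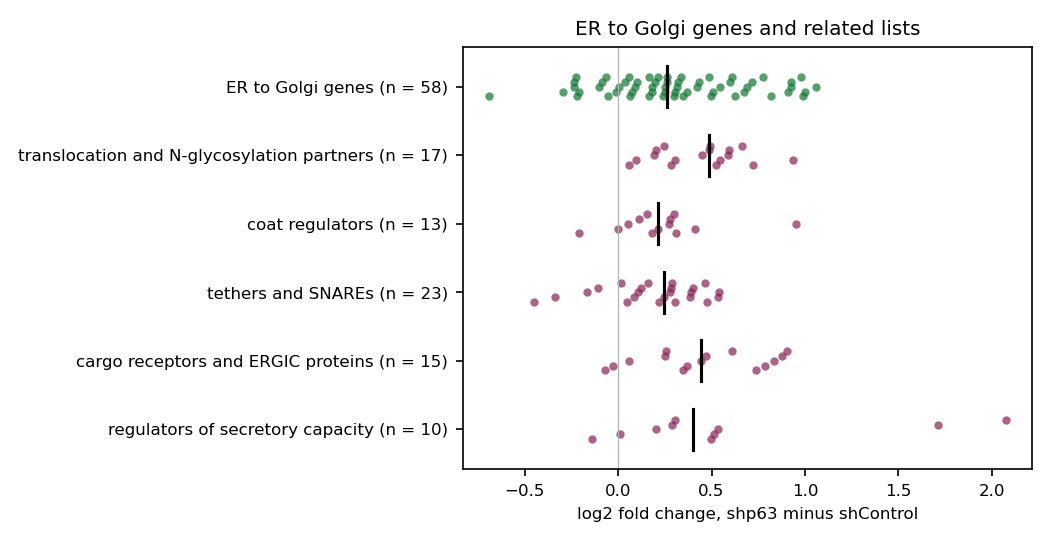
Log2 fold change (shp63 minus shControl) of each tested gene, by list, with the 58 ER to Golgi genes in green, related lists in purple and medians as black bars. Points are spread vertically for legibility only. The medians lie between 0.21 (coat regulators) and 0.48 (translocation and N-glycosylation partners), and the points farthest right are CREB3L1 (2.08) and XBP1 (1.71).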

How the data were processed

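Poly(A) RNA of 4 H226 cultures was sequenced from stranded libraries, per the labels' protocols. The deposited table holds raw counts of reads for each gene symbol, which the authors made by aligning to GRCh37 (hg19) with TopHat2 and counting with HTSeq, per the series' design text (TopHat2 2.0.13 and HTSeq 0.6.1, per the submitters' processing notes). The annotation and strand setting of the counting are not given in the sources used here. Of the members with an annotated position 40 overlap a gene on the opposite strand. Pseudogene copies named as the member's symbol followed by P were found for 13, a count that leaves out the copies of SEC22B.

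Counts of all genes were fitted with edgeR 4.0.16 (R 4.3.3): filterByExpr (minimum count 10, minimum total 15) kept 14901 genes, TMM factors were used, and a quasi-likelihood test with group as the only term was adjusted by Benjamini-Hochberg. A change of more than 1.5-fold was tested with glmTreat. Standard errors come from the fold change and its F statistic. CPM uses the TMM factors. The smallest library held 51926832 reads. Replicates of a group differed by more than sampling noise (chi-square per degree of freedom 3.43 and 3.74), so all 4 were kept. The p-values reflect variation among cultures only.

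Positions and canonical transcript lengths, used for levels between genes, come from GENCODE 44 on GRCh37. Promoters come from RefSeq (GRCh38.p14); motifs were chosen with the members' values known. Members, roles and lists were chosen with earlier results of these data known. Named genes are all members, TP63 and, per related list, up to 2 called genes in each direction by smallest adjusted p. The marker genes named, TRAM2, MBTPS2, CREB3L1 and ARCN1 were named after their values were seen. Alternatives were RLE factors, library totals, other low-count filters, DESeq2 1.42.0, limma-voom (limma 3.58.1), the replicate number as a block, and leaving out each library.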

Additional observations from a re-analysis of the deposited data

How the results depend on the processing

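Over all alternatives, 36 to 39 of the 58 members were higher, 6 to 11 lower and 7 to 11 higher beyond 1.5-fold, and 48 members kept their call under each that tested them. With the replicate number as a block, 37 were higher, 7 lower and 10 higher beyond 1.5-fold, and SRP54, SEC24B and SEC16A were not called (adjusted p = 0.0507, 0.0564 and 0.0636). Same-numbered libraries did not deviate together (correlation -0.112), so the numbers were not taken as pairs. A crossed block, added after seeing the data, gave 39, 9 and 10.

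With library totals without a composition factor, the median log2 fold change of the members was 0.17, those of the related lists were 0.40 (translocation and N-glycosylation), 0.12 (coat regulators), 0.16 (tethers and SNAREs), 0.36 (cargo receptors) and 0.31 (regulators of secretory capacity), and 2 coat regulators and 2 cargo receptor genes were called lower. SEC16A (-0.0155) and SEC63 (-0.000353) then changed sign. The causes were not tested. With a filter of 1 CPM the median of the regulators was 0.31 (0.307). Leaving out each library in turn, the median ran from 0.17 to 0.24 for coat regulators and from 0.20 to 0.25 for tethers and SNAREs, lowest in both lists without shControl replicate 2. Leave-one-out fits assume that the lone library of a group varies like the others.

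With 1 hairpin a group and 2 cultures each, effects of the hairpin cannot be told apart from those of p63. Members under 100 reads (TMED7-TICAM2, SRP14-AS1, SEC16B and SEC24B-AS1) are the least precise, with standard errors of 0.18 to 0.28.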
